A study of Mus musculus with 5 samples.

Results

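SR splicing factors are RNA-binding proteins with an arginine- and serine-rich domain, and the 7 genes described here are Srsf1, Srsf2, Srsf3, Srsf5, Srsf6, Srsf7 and Srsf9. SR genes, mRNAs, positions and sites below mean those of these 7 genes. They were chosen by name, out of 2692 genes with exonic positions in the data, and every deposited position on their exons was taken on the strand of the call. Srsf5 had no position in the files used here, so 6 genes carry the results, with 1934 positions in the METTL3 inhibition dataset and 2019 in the Mettl5 dataset. The question asked of these positions was how strongly the SR mRNAs were methylated, where along the transcript, and how the level moved when METTL3 was inhibited or Mettl5 was deleted.

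The METTL3 inhibition dataset held 1 library of mESCs (mouse embryonic stem cells) treated for 48 h with 30 μM STM2457, a small molecule that inhibits METTL3, and 1 library treated for 48 h with 0.025% v/v DMSO, the solvent. By the methods both came from E14 cells that carried 2C and Zscan4 fluorescent reporters, a doxycycline-driven APOBEC1-YTH transgene that was not induced, and a homozygous FKBP12-derived degron tag on the C-terminus of METTL3, also not induced. The Mettl5 dataset held 1 library of untreated WT mESCs and 2 of untreated Mettl5-KO mESCs, each made from a single clone (clone 1, clone 2). The paper describes these as separate datasets from different lines, so a difference between DMSO and WT cannot be told apart from one of line or dataset. All 10 mESC markers checked, among them Pou5f1 and Dppa5a, had positions in the METTL3 inhibition dataset, though Klf4 had only 2. In the Mettl5 dataset 8 of 10 had positions. Of 9 markers of differentiated cells only Vim had any, at 18 positions of the METTL3 inhibition dataset. Neither Mettl5 nor Mettl3 had a position in either dataset, so the knockout itself was not checked here. Valid calls summed over all positions ranged from 17897440 to 71574467 per library, and over the SR positions from 147509 to 289921.

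N6-methyladenosine (m6A) on mRNA is written co-transcriptionally, mainly by the METTL3 complex, at adenosines in the DRACH motif. Methylation is most frequent in last exons and long internal exons and is scarce close to exon-exon junctions, where the exon junction complex sits. SR proteins bind exonic enhancers, recruit the spliceosome and, in several cases, accompany the mRNA to the cytoplasm, and many of their own transcripts are controlled through ultraconserved poison exons that lead to nonsense-mediated decay. METTL5 is best known as the writer of an m6A in 18S ribosomal RNA.

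DRACH is spelled here as A, G or T, then A or G, then A, then C, then A, C or T, read on the transcript strand only. A site was a position with more than 25 valid calls in every library of its dataset that reached a level of 25% in at least 1 of them. The level is the share of valid calls that were m6A. By this definition 7 sites lay on SR mRNAs in the METTL3 inhibition dataset, 5 on Srsf2, 1 on Srsf3 and 1 on Srsf6. All 7 were DRACH adenosines, and their sequences are given first because the results turn on these adenosines. Each line gives 21 bases of the transcript, 5′ to 3′, from GENCODE M21 on mm10, with the called A at the centre of the 5 capitals.
Srsf6, chr2:162934793, plus strand: ctataacaGAACActttccta
Srsf2, chr11:116853018, minus strand: acccacgaGGACTgtagctac
Srsf2, chr11:116850934, minus strand: ttaacagaGGACAttggggga
Srsf2, chr11:116850059, minus strand: tgtgttgtGAACTtttaaaaa
Srsf2, chr11:116850445, minus strand: ttgtataaAGACTtttcaggt
Srsf3, chr17:29041691, plus strand: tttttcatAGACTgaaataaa
Srsf2, chr11:116850428, minus strand: aggtgaaaAGACTtaattttt

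Of these sites 6 lay in the last exon and in the 3′ UTR, and 1 in the 5′ UTR of Srsf2. Over all genes 91.1% of the placed sites were in the last exon, so the SR share is near that background. The sites closest to the stop codon were those of Srsf2 and Srsf6, 38 and 39 nt after the last coding base. The Srsf2 transcript used as reference, Srsf2-201, has 3 exons and its stop codon lies close to the last junction, so its site 38 nt after the last coding base was 28 nt from that junction. The other 6 sites were between 308 and 903 nt from the nearest junction.

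**Figure D1:**
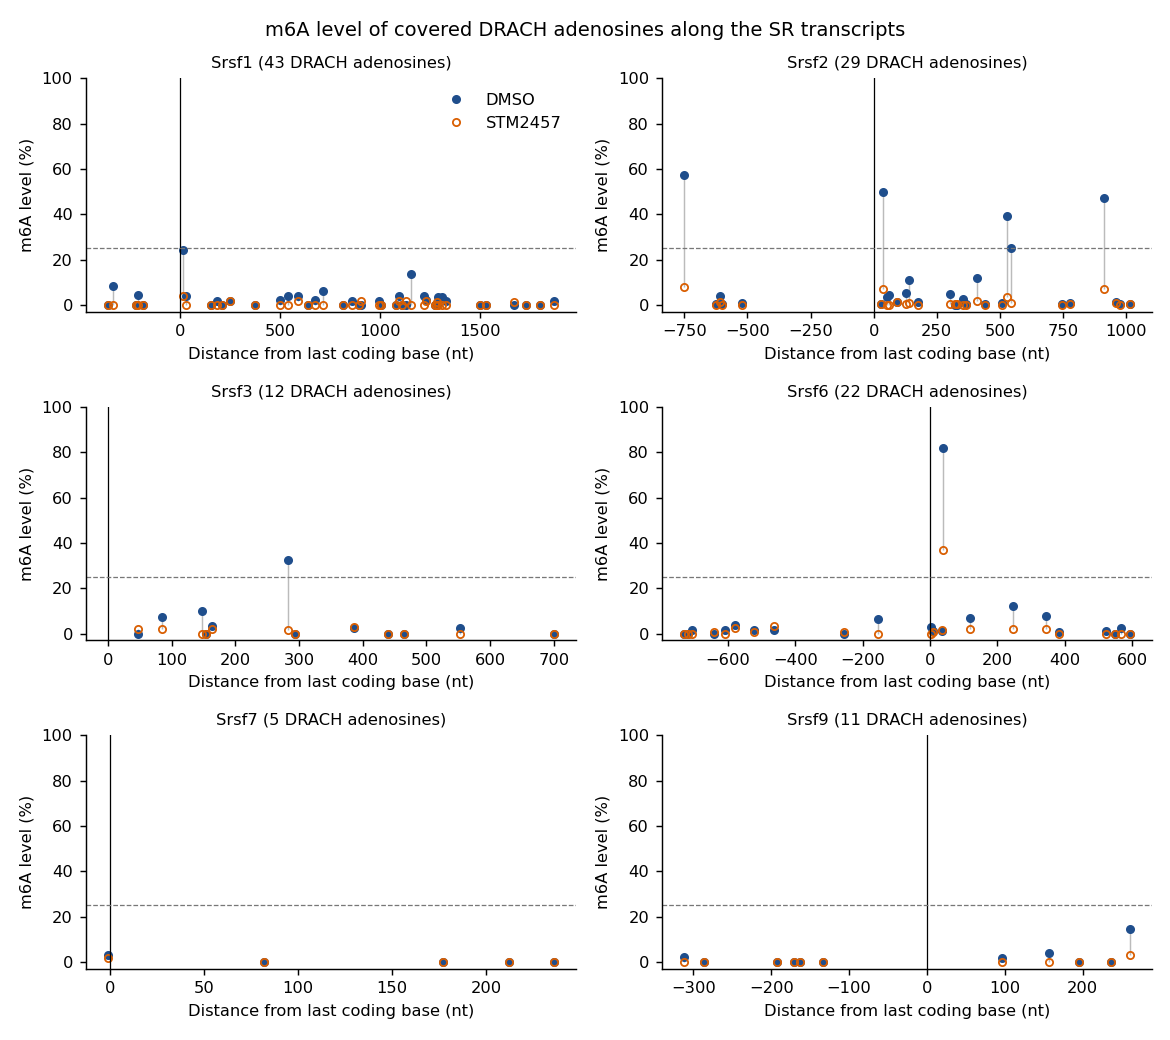
m6A level of each covered DRACH adenosine (y axis, %) against its distance from the last coding base (x axis, nt; the vertical line marks the last coding base) in the 6 SR genes with positions, for DMSO (filled) and STM2457 (open), with a dashed line at 25%. In DMSO 7 of 122 adenosines reached 25%, none of them in Srsf1, Srsf7 or Srsf9, and the Srsf6 site alone stayed above the line in STM2457, at 36.8%.

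Srsf2 encodes SC35, a core component of nuclear speckles, and had the most sites of the 6 SR mRNAs with positions. Outside this list Srsf4 had 6 sites. The median depth of Srsf2 was also the highest of the 6, with 338 valid calls per position in DMSO and 233 in STM2457. Its positions reached from 812 nt before to 1068 nt after the last coding base. The highest level was at the GGACT in its 5′ UTR, where 214 of 372 valid calls were m6A in DMSO (57.5%, exact 95% interval 52.3 to 62.6) and 20 of 245 in STM2457 (8.16%, 5.06 to 12.3). The GGACA just after the stop codon fell from 50% (160 of 320) to 6.94% (15 of 216). Both positions, before and after the coding sequence, were far lower in STM2457 than in DMSO.

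The other 3 Srsf2 sites were spread along the 3′ UTR. The GAACT 913 nt after the last coding base fell from 47.1% (173 of 367) to 7.06% (19 of 269). The AGACT at 527 nt fell from 39.4% (135 of 343) to 3.63% (9 of 248), and the AGACT 17 nt further on from 25.2% (83 of 330) to 0.823% (2 of 243). This last one was the SR site nearest above the threshold. The pair with the same 5-mer, 17 nt apart in the same exon, thus differed in DMSO, with intervals of 34.2 to 44.7% and 20.6 to 30.2% that did not overlap.

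Srsf6, which encodes SRp55, carried the highest level among the SR genes listed here. Outside this list the highest levels in DMSO were 98.0% on Srsf4 and 85.4% on Srsf11. The Srsf6 GAACA 39 nt after the last coding base was m6A in 162 of 198 valid calls in DMSO (81.8%, 75.7 to 86.9) and in 49 of 133 in STM2457 (36.8%, 28.6 to 45.6). It was the only SR site that still exceeded 25% after STM2457. Failed calls, those below the confidence filter, made up 15.4% of the calls at this position in DMSO, against 2.63 to 7.30% at the other 6 sites. Among DRACH adenosines of Srsf6 the next highest levels were at a TAACT 246 nt after the last coding base (12.1% in DMSO, 1.82% in STM2457) and a TAACT at 344 nt (7.83% and 1.94%).

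Srsf3, the smallest SR protein and an adaptor for mRNA export, had its only site 283 nt after the last coding base, an AGACT with 12 of 37 calls in DMSO (32.4%, 18.0 to 49.8) and 1 of 62 in STM2457 (1.61%, 0.0408 to 8.66). The interval in DMSO reaches below 25%, and this site had the fewest calls of the 7. The next highest DRACH adenosines of Srsf3 were a GAACA at 10% (3 of 30) and an AGACT at 7.41% (2 of 27), both upstream of the site. Outside DRACH, a GTAAA downstream of it was at 19.2% (5 of 26, with 33.3% failed calls).

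All 7 SR sites were lower in STM2457 than in DMSO and 0 were higher (Fisher's exact test, two-sided, Benjamini-Hochberg over 6169 sites). Over all sites 91.6% were called lower, so this count is near the background. The adjusted p ranged from 1.63e-37 at the Srsf2 5′ UTR site to 3.17e-05 at the Srsf3 site, and with 1 library per condition it compares the libraries and not the conditions. Summed over the 7 sites, 939 of 1967 valid calls were m6A in DMSO (47.7%, 45.5 to 50%) and 115 of 1416 in STM2457 (8.12%, 6.75 to 9.67). For all sites the summed levels were 55.5% and 15.5%.

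The relative decrease, the fall in level divided by the level in DMSO, was 85.0 to 96.7% at the Srsf2 and Srsf3 sites and 55.0% at the Srsf6 site. No SR site was non-responsive, that is at 25% or more in DMSO with a relative decrease under 25%, a class that held 4.35% of all such sites. Of the sites at 25% or more in DMSO, 20.9% over all genes kept 25% or more after STM2457, and the Srsf6 site was 1 of these. Among the 1704 sites of all genes with 75% or more in DMSO, 61.3% kept 25% or more and the median level in STM2457 was 29.1%. A relative decrease as small as that of the Srsf6 site or smaller was seen at 26.6% of those highly methylated sites and at 12.4% of all sites at 25% or more in DMSO.

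**Figure D2:**
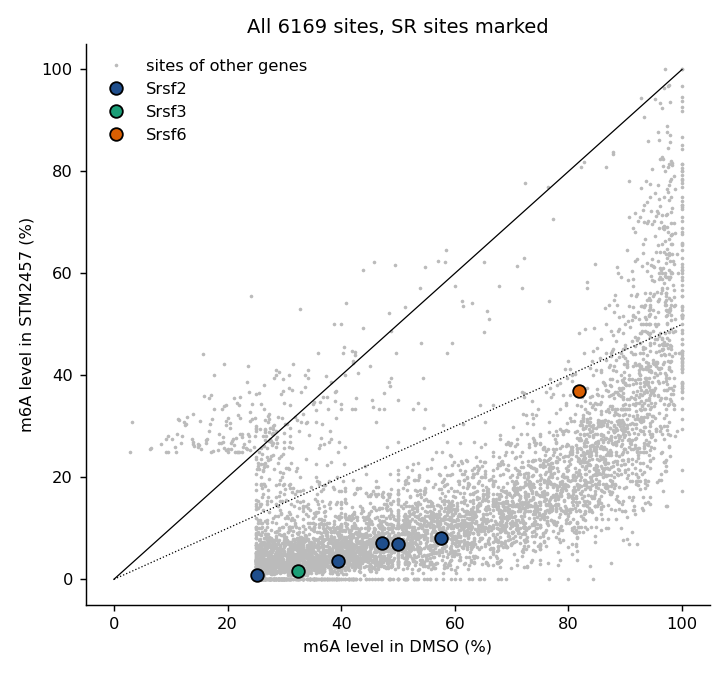
m6A level in STM2457 (y axis, %) against DMSO (x axis, %) for all 6169 sites of the METTL3 inhibition dataset, with the SR sites enlarged; the solid line marks equal levels and the dotted line a level in STM2457 that is 50% of that in DMSO. The Srsf2 and Srsf3 sites lie between 0.823 and 8.16% in STM2457, and the Srsf6 site at 81.8% in DMSO and 36.8% in STM2457 lies in the rising part of the cloud.

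Since the sites were chosen partly on their DMSO level, the fall was also read at SR positions chosen in another library. At 25% or more in WT of the Mettl5 dataset there were 7 SR positions, 5 of them DRACH. The 5 DRACH positions were all among the 7 sites above, with the same DMSO and STM2457 calls, so they add no new position. All 5 were lower after STM2457 at an adjusted p below 0.05, and neither of the other 2 was. Over all 1201 positions chosen this way 87.7% were called lower.

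The SR mRNAs held many more DRACH adenosines than sites. With more than 25 valid calls in both libraries, 122 were covered, and 7 of them reached 25% in DMSO (5.74%, 2.34 to 11.5), against 14.3% of the 38218 over all genes. The interval of the SR share ends below the share over all genes, but it counts adenosines of 6 mRNAs, whose motifs and positions differ from those of other genes. The levels summed over all calls of these adenosines in DMSO lay closer, at 7.20% for the SR genes and 7.80% over all genes. Deeply read mRNAs weigh more in these summed levels. In WT of the Mettl5 dataset the shares were 3.94% (5 of 127) and 8.08%. Of the SR adenosines, 107 of 122 were in DRACH motifs that do not begin with GGAC, where 8.90% reached 25% over all genes and 4.67% in the SR genes.

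Distance to a junction was considered next. Of 27 SR adenosines under 100 nt from a junction 1 reached 25% (3.70%), and of 95 at 100 nt or more 6 did (6.32%). Over all genes the shares were 2.05% and 20.4%. The summed levels in DMSO were 4.91% and 7.95% for the SR genes, and 1.68% and 12.2% over all genes. Under 100 nt the SR share rested on 1 adenosine, with an interval of 0.0937 to 19.0% that holds the share over all genes. The SR share was below that of all genes at 100 nt or more (2.35 to 13.2%), where most of the SR adenosines were in 3′ UTR. There the SR share of 5.62% in the 89 adenosines of other DRACH motifs (1.85 to 12.6) stood beside 12.6% over all genes. For GGACT and other GGAC motifs the SR numbers were 2 and 4 at that distance, too few to read. A gene without any methylated DRACH adenosine was not rare, since 22.8% of 1568 genes with 10 or more covered had none, and of 121 genes with 40 or more covered 15.7% had none. Srsf1, with 43 covered, and Srsf9, with 11, were among them.

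**Figure D3:**
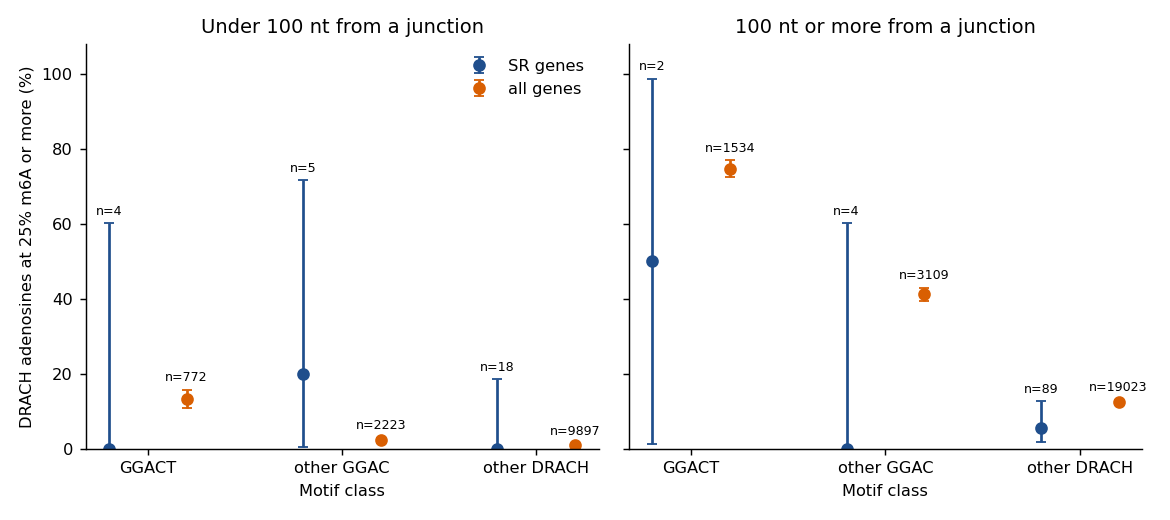
Share of covered DRACH adenosines with 25% m6A or more in DMSO (y axis, %) by motif class (x axis) for SR genes (blue) and all genes (orange), under 100 nt and 100 nt or more from an exon-exon junction; points are shares, bars exact 95% intervals and n the number of adenosines. At 100 nt or more, 5.62% of 89 SR adenosines in other DRACH motifs reached 25%, against 12.6% of 19023 over all genes, and the SR intervals in the GGAC classes are wide.

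The same motif was methylated in one SR mRNA and close to empty in another. GGACT, the motif with the highest share over all genes (55.0% at 25% or more), occurred 6 times among the covered SR adenosines. In the Srsf2 5′ UTR it was at 57.5%, and in the others between 0 and 8.33%. Those lines are shown for comparison with the Srsf2 sequence above.
Srsf1, chr11:88049070, plus strand: agctggcaGGACTtaaaggat
Srsf1, chr11:88050317, plus strand: tttaatagGGACTaatgtggg
Srsf1, chr11:88049044, plus strand: ttgtctctGGACTgcctccga
Srsf7, chr17:80201552, minus strand: gaaagaatGGACTgaagttct
Srsf9, chr5:115332118, plus strand: ttgtttcaGGACTtcctccat

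Of these 5 positions 4 were 2 to 51 nt from a junction, with levels of 8.33% and 0 in Srsf1, 3.28% in Srsf7 and 2.02% in Srsf9. The exception was the Srsf1 position in the 3′ UTR, 906 nt from the nearest junction, with 3 of 48 calls in DMSO (6.25%) and 0 of 54 in STM2457. Over all genes 13.2% of GGACT adenosines under 100 nt and 74.8% of those at 100 nt or more from a junction reached 25%.

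GAACA gave the widest range within SR mRNAs. Besides the Srsf6 site at 81.8% there were 9 covered GAACA, from 0 to 10%, and over all genes 7.26% of GAACA reached 25%. Within Srsf6 itself the other 3 were at 7.02%, 3.72% and 1.49% in DMSO. The first of these lies in the same 3′ UTR, 118 nt after the last coding base and 461 nt from the nearest junction, and so shares the motif and the distant junction with the site at 81.8%.
Srsf6, chr2:162934872, plus strand: tgaaaaggGAACAccggaatt
Srsf6, chr2:162933708, plus strand: caaagaacGAACAaatgaggg
Srsf6, chr2:162933825, plus strand: taagccaaGAACAagccatag

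DRACH adenosines close to the sites were at low levels. In Srsf6 a TAACA 5 nt before the site was at 0.909% in DMSO. In Srsf2 a TAACA 7 nt before the GGACA at 50% was at 0.631%, and a GGACC 15 nt after it at 3.59%. In Srsf3 an AAACC 10 nt after the site had 0 of 38 calls. A GAACC 18 nt before the Srsf2 AGACT at 39.4% was at 0.896%. The AGACT pair of Srsf2 was the closest pair of sites on an SR mRNA.

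Srsf1, the founding member of the family (ASF/SF2), had no site. Its most methylated adenosine was the SR position nearest below the threshold, a TGACA 15 nt after the last coding base with 12 of 49 calls in DMSO (24.5%, 13.3 to 38.9) and 2 of 52 in STM2457 (3.85%). In WT the same position was at 10.7%. A GAACT 1155 nt after the last coding base was at 13.6% in DMSO and 0 of 63 calls in STM2457, and 41 of the 43 adenosines were under 10%.
Srsf1, chr11:88049618, plus strand: atgattggTGACActttttgt

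Srsf9 is the closest relative of Srsf1 in the family, and its mRNA was as sparsely methylated. Among its DRACH adenosines the highest level was 14.8% in DMSO and 3.06% in STM2457, at a TGACT in the 3′ UTR, 261 nt after the last coding base, followed by a GAACT at 4.12% and 0. Outside DRACH, a TCATG was at 16.7% and 15.8%, with 57.5% failed calls in DMSO. Exon 3 is 173 nt long in both genes, and 5 covered DRACH adenosines sat at the same exon and offset in both, with 16 to 18 of 21 bases identical between the genes. At these 5 shared positions, all 2 to 31 nt from a junction, levels in DMSO were 0 to 8.33% in Srsf1 and 0 to 2.02% in Srsf9. The shared position 28 nt from the junction was a GGACT in Srsf1 and a GGACC in Srsf9, shown here.
Srsf9, chr5:115332144, plus strand: agctggcaGGACCtgaaagat

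Srsf7, a zinc-knuckle SR protein that like Srsf3 links splicing to export, was covered at 96 positions in the last exon. Its 5 covered adenosines were at 0 to 3.28% in DMSO. The covered positions reach 241 nt after the last coding base, in a 3′ UTR annotated as 1468 nt in Srsf7-201, so the remainder of that UTR is outside these values.

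Below the threshold the fall after STM2457 was still seen. The 7 SR adenosines between 10 and 25% in DMSO were all lower in STM2457, with a summed level of 12.6% in DMSO and 1.59% in STM2457. They were chosen on their DMSO level, so part of this fall can come from that choice. Over all genes 99.8% of 3480 such adenosines were lower, with summed levels of 16.3% and 2.05%, so the SR values are near the background. Tested over all 38218 covered DRACH adenosines with no level threshold, a test added after the data were seen, 18 of 122 SR adenosines were called lower against 19.4% over all genes. The 100 SR adenosines under 5% in DMSO had summed levels of 1.14% and 0.363%, against 0.856% and 0.301% over all genes.

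Summing the levels of all covered DRACH adenosines of an mRNA gives its mean number of m6A calls over the covered stretch. No background of false calls was taken off, and positions outside DRACH were left out. The sum was 2.77 in Srsf2, 1.34 in Srsf6, 1.02 in Srsf1, 0.583 in Srsf3, 0.227 in Srsf9 and 0.0328 in Srsf7 in DMSO. In STM2457 it was 0.356, 0.520, 0.172, 0.105, 0.0306 and 0.0179 in the same order. Srsf2 was first in DMSO and Srsf6 in STM2457. The sums rest on stretches of different length, with 29 adenosines in Srsf2, 22 in Srsf6 and 43 in Srsf1.

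Mettl5 deletion was examined at 10 SR sites of the Mettl5 dataset, 3 on Srsf1, 5 on Srsf2, 1 on Srsf3 and 1 on Srsf6. At the Srsf6 site the level was 66.2% for WT (51 of 77), 65% for clone 1 (39 of 60) and 80% for clone 2 (52 of 65). The Srsf2 5′ UTR site had 49.4% for WT, 47.6% for clone 1 and 42.3% for clone 2. The intervals of the 3 libraries overlapped at both sites.

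At the 3′ UTR sites of Srsf2 all clone 2 levels were above WT and clone 1 levels lay on either side, with no difference called. The GGACA after the stop codon was at 29.1% for WT, 27.1% for clone 1 and 34.1% for clone 2. The GAACT was at 37.8%, 36.6% and 40%, and the first AGACT at 17.8%, 25.5% and 22.8%, in the same order. The second AGACT, under 25% in all 3 libraries and so not tested, was at 6.62%, 12.2% and 12.5%. The Srsf3 site was at 28.6%, 32.5% and 20.5%, from 42, 40 and 39 calls.

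**Figure D4:**
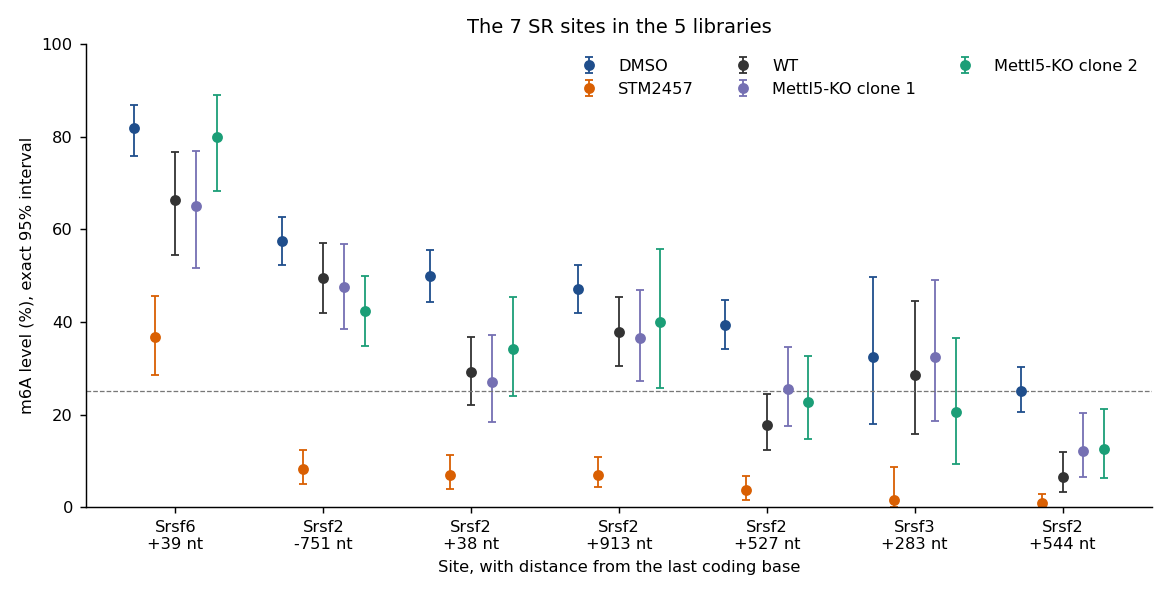
m6A level (y axis, %) of the 7 SR sites (x axis, gene and distance from the last coding base) in DMSO, STM2457, WT and both Mettl5-KO clones; points are levels of single libraries, bars exact 95% intervals, and the dashed line marks 25%. STM2457 is the lowest library at every site, the WT and clone intervals overlap at each site, and WT lies below DMSO at all 7.

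No SR site changed in both clones (Fisher's exact test against WT in each clone, Benjamini-Hochberg over 1859 sites), and over all sites 0.0538% did, which is 1 site. At an unadjusted p below 0.05, 1 of the 10 SR sites passed in clone 1, 0 in clone 2 and 0 in both, and no other tool was run. Over all sites 6.51% passed in clone 1, 7.69% in clone 2 and 2.15% in both. The 1 that passed was an ATACA in the Srsf1 3′ UTR, outside DRACH, at 1.96% for WT, 27.7% for clone 1 and 7.35% for clone 2. The adjusted p of that exact test was 0.0572 in clone 1 and 0.839 in clone 2. Failed calls made up 39.3% of the calls at this position in WT. The other Srsf1 sites, a GTAGC (28.3% for WT, 21.9% and 15.9% for the clones) and a TCATG (37.3%, then 21.9% and 21%), were also outside DRACH, with 30.3% and 44.6% failed calls in WT, and neither passed an unadjusted p of 0.05 in either clone. Among the 6 DRACH sites the log2 fold change ranged from -0.10 to 0.52 in clone 1 and from -0.48 to 0.36 in clone 2.

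All 7 sites chosen in the METTL3 inhibition dataset were lower in WT than in DMSO, as were 85.7% of such sites over all genes. The median difference was 15.6 percentage points for the SR sites and 8.70 over all 1355. These sites were selected on DMSO. Of the 7 SR positions selected on WT, 5 were lower in WT than in DMSO, against 72.2% over all genes. These 5 were the DRACH positions, with a median difference of 9.35 percentage points, against 6.68 over all DRACH positions selected on WT. The Srsf1 GTAGC and TCATG, outside DRACH, were higher in WT (28.3% against 15.2% in DMSO, and 37.3% against 16.1%). No test was made, since the lines differ between the datasets.

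Outside DRACH, 18 of 1806 covered SR positions had 10% or more in DMSO (0.997%, against 1.09% over all genes). Of these 18, 13 were lower in STM2457, against 82.5% over all genes, and 6 fell below 50% of their DMSO level, against 48.1%. Of the 15 with at least 20% failed calls 3 fell below 50% of their DMSO level after STM2457, and of the 3 with fewer failed calls all 3 did. The median share of failed calls was 28.9% at these 18 positions and 3.65% at the 14 DRACH adenosines at 10% or more, all of which were lower in STM2457. A CCACG in the coding sequence of Srsf2 was at 15.3% in DMSO, 20.7% in STM2457, 22.7% for WT, 27.0% for clone 1 and 20.7% for clone 2. Failed calls were 38.9% there in DMSO. The part of failed calls in these levels was not tested.

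Srsf6 held the clearest exceptions. Its TTACT 65 nt after the last coding base, 26 nt after the site at 81.8%, fell from 18.9% to 2.70% with 8.64% failed calls, and a GAACG in its coding sequence from 12.1% to 1.42% with 10.8%. Both were called lower when sites were taken from 10% upward.

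**Figure D5:**
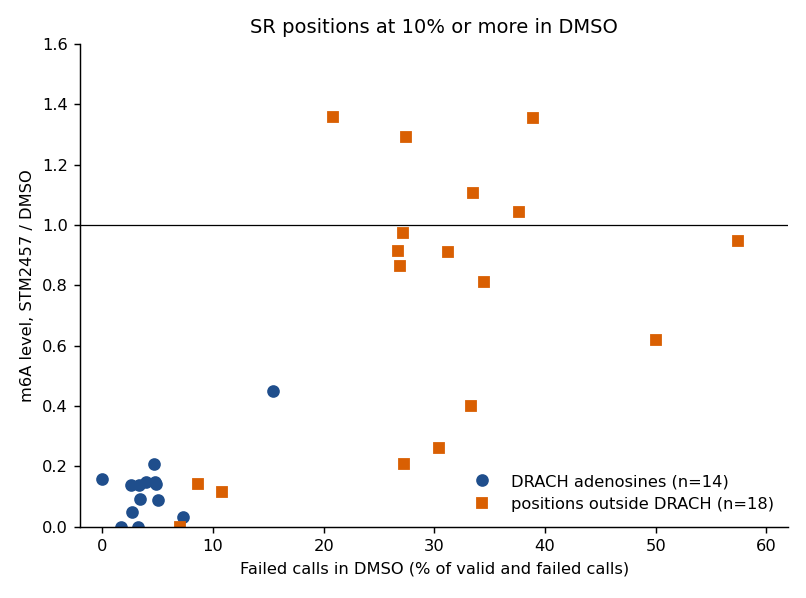
Ratio of the m6A level in STM2457 to that in DMSO (y axis; 1 is no difference) against the share of failed calls in DMSO (x axis, %) for SR positions with 10% or more in DMSO, split into DRACH adenosines (blue circles, n = 14) and positions outside DRACH (orange squares, n = 18). The DRACH points lie at ratios up to that of the Srsf6 site, with 0 to 15.4% failed calls, while 15 of the 18 other positions have over 20% failed calls, 3 of them at a ratio below 0.5.

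Read depth at SR positions, a measure of how many reads of the mRNA were in the library, moved unevenly after STM2457. Relative to the median gene, for which valid calls were 0.815 times those in DMSO, Srsf3 was 2.11-fold higher, Srsf1 1.31-fold and Srsf7 1.25-fold higher, and Srsf9, Srsf2 and Srsf6 were at 0.839, 0.837 and 0.799. Of 2464 genes 9.62% were 1.5-fold or more above the median gene, and Srsf3 was the SR gene among them, ahead of 98.3% of genes. Its median depth was 36.5 valid calls in DMSO and 61 in STM2457. No test was possible with 1 library per condition, and fewer cells and less RNA per cell cannot be told apart in bulk libraries.

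In the clones Srsf2 had the lowest relative depth of the SR genes, 0.702 in clone 1 and 0.521 in clone 2, from a median of 166 valid calls per position for WT, 101 for clone 1 and 86 for clone 2. The values for 5% and 95% of genes were 0.623 and 1.54 in clone 1 and 0.499 and 1.66 in clone 2, so that Srsf2 lay inside these limits in both. Srsf1 was at 1.31 and 1.21, and the other 4 between 0.831 and 1.05. In clone 2 depth was uneven along the mRNA, so these medians do not hold for its whole length. The Srsf2 5′ UTR site had 180 valid calls for WT, 124 for clone 1 and 175 for clone 2. A TAACC 1016 nt after the last coding base of Srsf2 had 164, 95 and 40, in the same order. An AAACA 1873 nt after that of Srsf1 had 82, 72 and 32. The cause was not tested.

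The covered stretches show which transcript ends were read. Srsf1 positions ended at 88051490 on chromosome 11, the annotated end of Srsf1-201, and Srsf7 positions at 80201310 on chromosome 17, the annotated end of Srsf7-205, both upstream of the ends of the longer reference transcripts. Srsf3 positions ended at 29042108 on chromosome 17 in the METTL3 inhibition dataset and at 29042784 in the Mettl5 dataset. Srsf6 positions of the METTL3 inhibition dataset ended at 162935348 on chromosome 2, which was not an annotated end. In Srsf6 the median number of reads crossing a position was 250 in DMSO up to 444 nt after the last coding base and 89 beyond 450 nt. No position of any SR gene body lay outside annotated exons of GENCODE M21. By the methods, positions overlapping no RefSeq exon were filtered out by the authors. This absence was thus set by the filter, and poison exons and retained introns that are not RefSeq exons are not described by these data.

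Of 23 other genes of the SR pathway 7 had positions in the METTL3 inhibition dataset and 5 had sites, 15 in all. Of the 15 sites 13 were called lower after STM2457 and 0 were called higher, and over all sites 91.6% were called lower. The smallest relative decrease among the 15 was -67.3%, a rise that was not called. Srsf4, another SR protein, had 6 sites with mean levels of 67.6% (DMSO) and 24.9% (STM2457), and Srsf11 had 3, at 53.0% and 11.9%. Snrnp70, the U1 protein that SR proteins contact, had 3 sites at 47.8% and 6.56%. The 2 sites not called lower were on Tnpo3, the import receptor of SR proteins, and neither was a DRACH adenosine. Ythdc1, the nuclear m6A reader that binds SR proteins, and the Srpk and Clk kinases had no positions here. In the Mettl5 dataset 0 of 7 pathway sites changed in both clones by the same test.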

How the data were processed

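Direct RNA reads were demultiplexed with WarpDemuX, called and aligned to mm10 with dorado and counted per position with modkit pileup by the authors. The deposited counts per position and strand are valid, m6A, unmodified, other-modification and failed calls, without normalization. The deposited percent is 100 times m6A over valid calls. Calls under the confidence filter leave that percent, and reads begin at the poly(A) tail, which favours 3′ ends.

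Positions were matched to exons of RefSeq-linked GENCODE M21 transcripts on the call strand (bedtools 2.31.1). Members and lists were chosen with earlier results of these data known. Named sites were the 3 highest DMSO levels per gene, non-responsive sites, sites higher after STM2457, those nearest 25%, and those with an unadjusted p below 0.05 in both clones. Levels were compared by a two-sided Fisher's exact test, adjusted over all sites after Benjamini-Hochberg, at 0.05 (scipy 1.17.1), after testing on simulated data. Intervals are exact binomial (95%), and intervals and p-values cover counting error only. The reference transcript was coding, RefSeq-linked, of best APPRIS rank and longest coding sequence. Depth ratios used genes with at least 20 positions.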

Additional observations from a re-analysis of the deposited data

Results flagged for a closer look

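Calls of a modification other than m6A (the caller also scores inosine and 2′-O-methyladenosine) were not used in the comparisons. Over the SR positions they were 0.521% of valid calls in DMSO, against 0.454% over all exonic positions. The highest share was at a CAATT in the Srsf1 3′ UTR, 1839 nt after the last coding base (chr11:88051442), with 17 of 44 calls in DMSO (38.6%, exact 95% interval 24.4 to 54.5), above the 6.82% that a count of 0 would allow. It was 34.7% in STM2457, 42.4% in WT and 50% in both clones. Failed calls were 38.0% at this position in DMSO, and their part in the value was not tested. Groups held 1 or 2 libraries, so no outlier among replicates could be looked for.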

How the results depend on the processing

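The 14 values that moved followed the level threshold, the library that chose the sites, or the call rule. With sites taken from 10% upward, 17 of 35 SR sites were lower after STM2457, near the 53.5% of 15087 sites over all genes. Of the 35 SR sites, 11 were not responsive (all outside DRACH), 32 lay in the last exon and the summed level in DMSO was 25.1%. From 50% upward these were 3 lower and 2 in the last exon, with summed levels of 60.2% in DMSO and 14.1% in STM2457. Apart from the lower sites at 10%, these counts at 10% and 50% have no share over all genes beside them and are not read against a background. With sites chosen in WT the summed levels were 53.8% and 11.3%. The test of all covered DRACH adenosines, chosen after seeing the data, called 18 lower. Counting sites at 25% or more in both libraries as not responsive gave 1, the Srsf6 site. The methylated share of SR DRACH adenosines was 5.74% as reported, 11.5% at a 10% threshold (23.4% over all genes) and 2.46% at a 50% threshold (8.13%). The median relative depth of the SR genes after STM2457 turned from 1.04 to 0.923 at 50 or more valid calls in DMSO, where Srsf3 had too few positions to enter. By log2FC of at least 1.5 in both clones, with no test, 1 of 10 SR sites changed, the Srsf1 ATACA outside DRACH. No share over all sites by this rule stands beside that count, so it is not read as a result about the SR genes. Leaving out either clone gave 0 changed SR sites. The remaining counts stayed within 1.5 times and the remaining levels within the exact interval of the reported value, and all 48 values of single sites kept their direction and side of the threshold. No paired analysis was possible because the groups compared share fewer than 2 replicate numbers. Srsf3 rests on 37 calls in DMSO, so its site is lost at 50 calls or more, and the Srsf2 AGACT at 25.2% is lost when failed calls count as unmodified.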
